A study of Mus musculus with 3 samples.

Results

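The genes described here are Ifng, which encodes interferon gamma, and 9 genes that encode chains of the receptors for interferon gamma, IL-12, IL-18, IL-27 and IL-6: Ifngr1, Ifngr2, Il12rb1, Il12rb2, Il18r1, Il18rap, Il27ra, Il6ra and Il6st. They were chosen by symbol from the 50600 genes counted, and all 10 were found. RNA came from 3 libraries of T helper 1 (Th1) cells, primary cells of mouse strain C57BL/6NJ, which the file headers date to 48 h. The labels number them biological replicates 1, 2 and 3 of 1 group, give them 1 donor identifier, and name no treatment or genotype. With 1 group, the comparisons are between genes within a library and between libraries. Since no label names separate animals or cultures, p-values from tests over the libraries refer to variation among these 3 alone. That variation may be technical. P-values from tests of counts between 2 libraries cover counting error only and not variation between libraries.

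Th1 cells are a class of helper T cells defined by their secretion of interferon gamma. In activated CD4 T cells, IL-12 acts through a receptor of the chains IL-12Rβ1 and IL-12Rβ2 and activates STAT4, IL-27 acts through IL-27Rα and gp130, and interferon gamma itself signals back through IFNGR1 and IFNGR2. IL-18, whose receptor is a member of the IL-1 receptor family, acts together with IL-12 to raise interferon gamma output from T cells that already express Il18r1. IL-6 binds IL-6Rα and shares gp130, the product of Il6st, with IL-27.

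Levels are given as raw fragment counts and as TPM, which are counts divided by gene length and scaled to a sum of 1000000 per library; only TPM is compared between genes. Replicates 1 and 3 held 4742025 and 3543816 counts, and replicate 2 held only 50627, so that 1 count in replicate 2 was worth 19.8 CPM (counts per 1000000). A count of 0 there allowed up to 59.3 CPM, taking 3 counts as the limit. Genes that share exonic positions with a gene of the opposite strand took 52.7%, 57.8% and 72.2% of the counts of replicates 1, 2 and 3. The tables were counted with strand setting 1 from a run named as stranded; whether the kit reads that strand is not given in the sources used here, and its part in the levels was not tested. If the kit reads the other strand, the fragments counted here are those assigned to the strand opposite to the gene. How far the counts and TPM would then reflect the gene's own expression was not tested. T cell markers were present, with all 7 above 1 TPM in every library, led by Cd5, Trac and Cd4 (326, 348 and 251 TPM in replicate 1). Of the CD8 T cell markers, Cd8a had no count in any library and Cd8b1 had 21, 1 and 13 counts in replicates 1, 2 and 3. Natural killer cells, which also secrete interferon gamma, have the defining markers Ncr1, Klrb1c and Klre1, all 3 without a count in any library, and Klri2 had 1 count.

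Ifng (chromosome 10, 118441046 to 118445892, plus strand, mm10; ENSMUSG00000055170.4) had 150, 2 and 44 counts in replicates 1, 2 and 3. Its level was 54.1 TPM in replicate 1 (exact Poisson 95% interval 45.8 to 63.5), 63.8 TPM in replicate 2 (7.72 to 230.3) and 17.2 TPM in replicate 3 (12.5 to 23.1). In TPM, replicate 3 was below replicate 1 by more than counting error, but the size of that difference depends on the scaling between libraries (log2 ratio -0.75 after scaling by the trimmed mean of M values, TMM, and -0.57, not called, with totals over genes without opposite-strand exons), while the 2 counts of replicate 2 fixed no level. The intervals cover counting error only, and bulk RNA cannot tell fewer Ifng-expressing cells from less Ifng RNA per cell. In replicates 1 and 3, 90.9% and 86.0% of the protein-coding genes lay below Ifng.

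The count of Ifng leaves out part of the gene. Of its 1295 exonic bases, 336 (25.9%; 118442460 to 118442795, 249 of them coding) also belong to Gm49751, a gene model of the TEC biotype, which awaits experimental evidence, on the same strand. Per the file headers no option was set that would count a fragment for more than 1 gene, and by default this counter drops fragments that touch exons of different genes. Gm49751 itself had 2, 0 and 3 counts. With the 959 unshared bases as its length, a choice made after this overlap was seen, Ifng came to 73.1, 86.1 and 23.3 TPM in replicates 1, 2 and 3. The genes nearest to Ifng in level, among the 5663 protein-coding genes that share no exon position with the other strand and hold 50 or more counts over replicates 1 and 3, were Icos, Polr2d, Egr1, Nudt4 and Crabp2. Icos, a costimulatory receptor of activated T cells, differed from Ifng by at most 0.024 in log2 TPM in these libraries, at 55.0 TPM in replicate 1 and 17.5 TPM in replicate 3. That likeness rests on these 2 libraries.

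Promoter sequence was taken from RefSeq (GRCm38.p6) for 8 of the 10 genes; Il12rb1 and Il27ra had no entry. The 250 bases before the start are shown for Ifng (chr10:118440796-118441045, plus strand) and Il12rb2 (chr6:67376189-67376438, minus strand), the cytokine and the inducible IL-12 receptor chain, which are also the members that differed between replicates 3 and 1 after the scaling described later. Both read 5′ to 3′ towards the start, and capitals mark matches to the searched motifs.
Ifng: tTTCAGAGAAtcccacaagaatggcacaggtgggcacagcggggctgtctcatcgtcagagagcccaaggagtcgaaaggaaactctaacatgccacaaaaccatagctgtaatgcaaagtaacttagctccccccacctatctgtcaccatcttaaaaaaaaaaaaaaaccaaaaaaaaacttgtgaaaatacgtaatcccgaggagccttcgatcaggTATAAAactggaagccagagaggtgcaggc
Il12rb2: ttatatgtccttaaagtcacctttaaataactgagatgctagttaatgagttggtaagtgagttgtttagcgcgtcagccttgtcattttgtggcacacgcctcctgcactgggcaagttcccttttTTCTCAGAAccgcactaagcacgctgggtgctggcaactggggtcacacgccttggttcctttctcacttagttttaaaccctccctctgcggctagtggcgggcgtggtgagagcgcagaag
The interferon-gamma-activated site, the palindrome TTCNNNGAA bound by STAT dimers, began at position -249 relative to the start of Ifng and at -123 relative to that of Il12rb2. It was found in 3 of 10 windows of the members, the other 1 being a window of Il18r1, against 7.02% of 32851 windows of all genes. These 10 windows belong to 8 genes, since Il18r1 has more than 1 window. Its matching window (chr1:40465756-40466005) lies after the first base of the gene as counted, 40465552. With so few windows the shares were not tested against each other. The letters TATAAA began at -30 in Ifng and are found, on either strand, in 12.4% of all windows. The AP-1 letters TGANTCA (6.75% of all windows), the T-box letters TCACACC (3.33%) and the core of the interferon-stimulated response element (2.98%), also searched on both strands, matched in none of the members' windows. The matches in capitals do not overlap each other. Matches describe letters and are not measured sites.

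The receptor for interferon gamma itself was represented by both chains, at lower levels than the cytokine. Ifngr1, the ligand-binding chain (chromosome 10, 19591949 to 19610229, plus strand), had 96, 1 and 38 counts, or 15.7, 14.5 and 6.77 TPM in replicates 1, 2 and 3. Ifngr2, the signalling chain that recruits JAK2 (chromosome 16, 91547072 to 91565169, plus strand), had 50, 1 and 17 counts, or 7.05, 12.5 and 2.60 TPM. In the deep libraries both were higher in TPM in replicate 1, and neither had more than 1 count in replicate 2. Ifngr1 exceeded Ifngr2 by a log2 TPM ratio of 1.16 in replicate 1 (exact 95% counting interval 0.65 to 1.68) and 1.38 in replicate 3 (0.52 to 2.30). Over the 3 libraries the mean was 0.92 ± 0.62 (SD, n = 3; exact two-sided sign-flip p = 0.25, the smallest that 3 libraries allow). Neither chain shares exonic positions with another gene.

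Of the IL-12 receptor, Il12rb1, the chain shared with the IL-23 receptor (chromosome 8, 70808449 to 70821424, plus strand), was the most abundant chain in both deep libraries. It had 448, 2 and 203 counts, or 51.0, 20.1 and 25.1 TPM in replicates 1, 2 and 3, and no overlap with another gene. Il12rb2, the signalling chain that binds STAT4 and marks IL-12 responsiveness (chromosome 6, 67291318 to 67376188, minus strand), had 92, 2 and 115 counts, or 11.3, 21.8 and 15.4 TPM. It was the only member with a higher TPM in replicate 3 than in replicate 1. Il12rb1 exceeded Il12rb2 by 2.17 in log2 TPM in replicate 1 (interval 1.84 to 2.51) and by 0.71 in replicate 3 (0.37 to 1.05), and the 2 intervals do not overlap. In replicate 2 the ratio was -0.11 (-3.90 to 3.67), on 2 counts of each. The mean was 0.92 ± 1.16 (SD, n = 3; exact sign-flip p = 0.50).

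The level of Il12rb2 has to be read beside its neighbour. Of its 3794 exonic bases, 1519 (40.0%) lie under an exon of Serbp1, an mRNA-binding protein gene on the opposite strand (67238176 to 67297736, plus strand). These are its last exons, with 631 coding bases (coding parts from GENCODE M21 on the same assembly) and the untranslated end. Serbp1 had 8409, 80 and 3882 counts in replicates 1, 2 and 3, or 195, 164 and 97.9 TPM. The counts given to Il12rb2 were 1.09%, 2.50% and 2.96% of those given to Serbp1. How many of them came from Serbp1 RNA was not tested, since the tables give 1 total per gene.

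**Figure D1:**
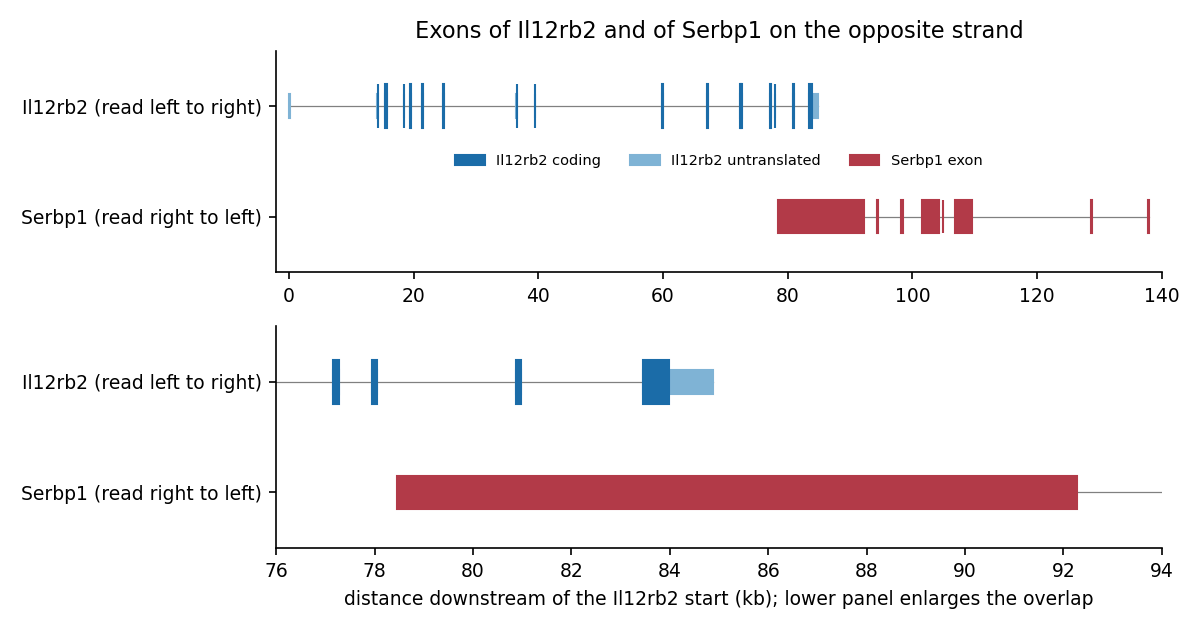
Exons of Il12rb2 (upper row of each panel; dark blocks coding, light blocks untranslated) and Serbp1 (lower row), drawn to scale against distance in kb from the Il12rb2 start, with the overlap enlarged in the lower panel. The last exons of Il12rb2, 1519 bases in all, lie wholly within the last Serbp1 exon.

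The IL-18 receptor chains were low, and neither was seen in the shallow library. Il18r1, the ligand-binding chain (chromosome 1, 40465552 to 40500854, plus strand), had 80, 0 and 44 counts, or 7.76 TPM in replicate 1 and 4.63 TPM in replicate 3. Il18rap, the accessory chain needed for signalling (chromosome 1, 40515362 to 40551705, plus strand), had 65, 0 and 23 counts, or 4.50 and 1.73 TPM, the lowest of the 10 in both deep libraries. Their 0 counts in replicate 2 allowed up to 25.7 TPM for Il18r1 and 18.3 TPM for Il18rap, above the values of the other libraries. Il18r1 exceeded Il18rap by 0.79 in log2 TPM in replicate 1 (interval 0.30 to 1.28) and by 1.42 in replicate 3 (0.66 to 2.22).

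These chains sit in a row of IL-1 receptor family genes on the plus strand of chromosome 1, 327 kb from the start of Il1r1 to the end of Il18rap. Their neighbours, named after their values were seen, were near the limit: Il1rl1, the IL-33 receptor chain of Th2 cells, had 9, 1 and 0 counts, and Il1r1, an IL-1 receptor, had 3, 0 and 1. On chromosome 6, Il23r, the IL-23 receptor chain of Th17 cells next to Il12rb2, had 3, 0 and 0 counts. Ifngr2 closes a further row on chromosome 16 with 3 class II cytokine receptor genes, Ifnar2, Il10rb and Ifnar1, which stood at 8.28, 7.73 and 11.6 TPM in replicate 1, against 7.05 TPM for Ifngr2. In replicate 3 they stood at 3.20, 2.40 and 5.35 TPM, against 2.60 TPM for Ifngr2. All 4 genes of that row passed 1 TPM in both deep libraries, whereas Il1r1 and Il1rl1 on chromosome 1 were below 1 TPM in both.

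Il27ra, the IL-27-specific chain (chromosome 8, 84030294 to 84042589, minus strand), had 147, 2 and 58 counts, or 19.6, 23.6 and 8.42 TPM in replicates 1, 2 and 3. Il6st, which encodes the shared chain gp130 (chromosome 13, 112464070 to 112510086, plus strand), had 150, 1 and 68 counts over its 11099 exonic bases, or 6.31, 3.72 and 3.11 TPM. Il6ra, the IL-6-binding chain (chromosome 3, 89864059 to 89913196, minus strand), had 133, 1 and 76 counts, or 7.19, 4.78 and 4.46 TPM. In TPM, Il27ra was thus higher than its partner chain Il6st. The log2 TPM ratio of Il27ra to Il6st was 1.64 (interval 1.30 to 1.98) in replicate 1 and 1.44 (0.91 to 1.96) in replicate 3. Its mean was 1.91 ± 0.66 (SD, n = 3, exact sign-flip p = 0.25). The ratio depends on gene length: Il27ra has 3495 exonic bases, and without length scaling the mean was 0.25 ± 0.66 (SD, n = 3). Il6ra and Il6st were closer, with a ratio of 0.19 in replicate 1 (-0.16 to 0.53), and one of 0.52 (0.03 to 1.02) in replicate 3. Only replicate 3 set them apart beyond counting error. Il27ra shares 2 exonic bases with Palm3 and Il6ra 242 (2.80%) with the antisense gene Gm42809, both on the opposite strand; Palm3 had 150, 1 and 181 counts and Gm42809 63, 0 and 80.

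**Figure D2:**
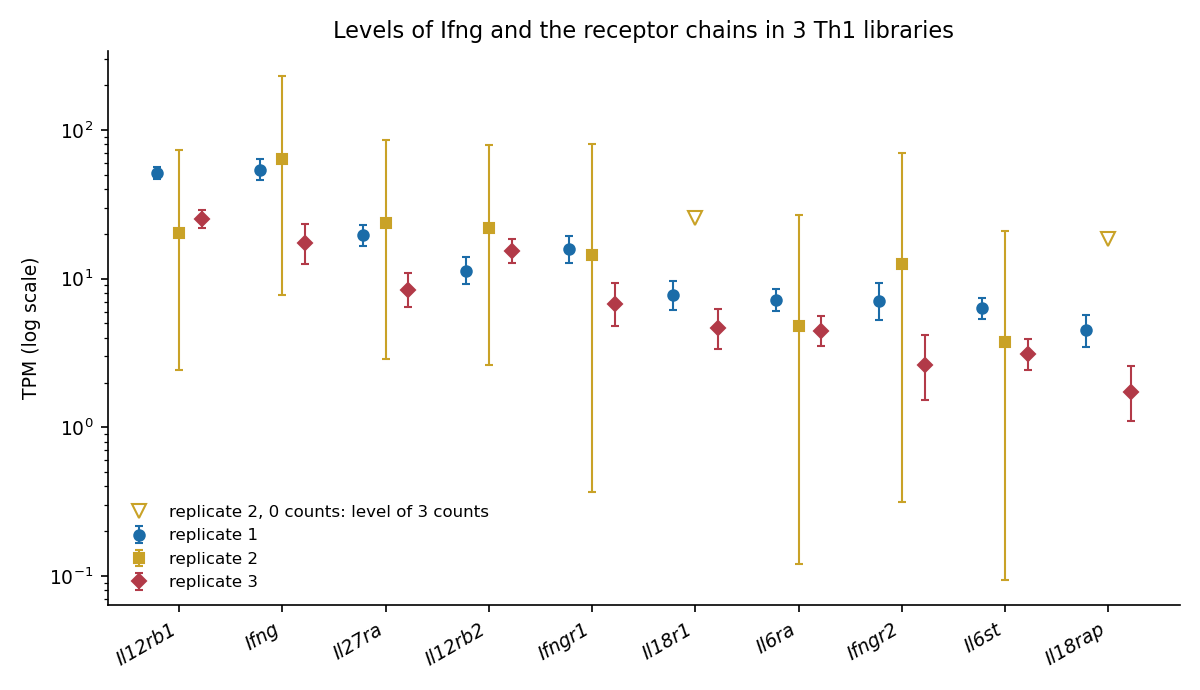
TPM on a log scale of Ifng and the 9 receptor chains in replicates 1, 2 and 3, ordered by the mean of replicates 1 and 3, with bars for exact Poisson 95% intervals of the counts. Il12rb1 and Ifng lead in replicate 1 (51.0 and 54.1 TPM), Il18rap is lowest (4.50 TPM), and the intervals of replicate 2 span most of the range; open triangles mark the level of 3 counts where replicate 2 had none.

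All 10 genes reached 1 TPM in both replicates 1 and 3, as did 44.3% of the 21764 protein-coding genes, and 8 of 10 did in every library, as did 29.4% of the protein-coding genes. Those at 0 in replicate 2 were Il18r1 and Il18rap. The order of levels was much alike in the deep libraries, with Il12rb1 and Ifng at the head and Il18rap at the end, and only Il12rb2 moved by 2 places, standing at place 3 in replicate 3 and place 5 in replicate 1. Neighbours in that order were often not separable. In replicate 1, Ifng over Il12rb1 (0.09), Il27ra over Ifngr1 (0.32), Il18r1 over Il6ra (0.11), Il6ra over Ifngr2 (0.03) and Ifngr2 over Il6st (0.16) had log2 ratios whose counting intervals held 0. In replicate 3 this was so of Ifng over Il12rb2 (0.16), Il27ra over Ifngr1 (0.31), Ifngr1 over Il18r1 (0.55), Il18r1 over Il6ra (0.05), Il6st over Ifngr2 (0.26) and Ifngr2 over Il18rap (0.59).

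Set against Ifng within each library, 8 of the 9 chains lay below it in both deep libraries, a share near that of all protein-coding genes (86.0%); the same 8 lay below it in every library where they had counts, against 85.5% of protein-coding genes. The exception was Il12rb1, whose log2 ratio to Ifng was -0.09 in replicate 1 (interval -0.36 to 0.19) and 0.54 in replicate 3 (0.07 to 1.05). In replicate 2 it was -1.66 (-5.45 to 2.12), and the mean was -0.40 ± 1.14 (SD, n = 3; exact sign-flip p = 0.75). In replicates 1 and 3 alone the mean was 0.23, so the sign of that mean rested on 2 counts of each gene in replicate 2. Il12rb2 lay well below Ifng in replicate 1, at -2.26 (-2.65 to -1.87), and indistinguishably from it in replicate 3, at -0.16 (-0.68 to 0.37). Il27ra stood at -1.46 (-1.80 to -1.12) in replicate 1 and -1.03 (-1.62 to -0.43) in replicate 3, and Ifngr1 at -1.78 (-2.17 to -1.40) and -1.35 (-2.01 to -0.69).

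The other 5 chains lay further below the cytokine. Ifngr2 had log2 ratios to Ifng of -2.94 in replicate 1 and -2.73 in replicate 3, and Il18r1 had -2.80 and -1.90. Il6ra had -2.91 and -1.95, and Il6st had -3.10 and -2.47. Il18rap was lowest, at -3.59 and -3.32, which puts it 12.0-fold below Ifng in replicate 1 and 9.97-fold below in replicate 3. All 10 intervals of these 5 chains in the deep libraries lay below 0. In replicate 2, with 2 counts of Ifng and 0 to 2 of each chain, every interval reached above 0, even for Il18rap, whose upper bound was 0.03. Over 3 libraries the exact sign-flip p was 0.25, the smallest possible, for each chain with counts in all 3 other than Il12rb1; with 2 libraries it cannot go below 0.50. In all, 14 ratios were computed, 9 to Ifng and 5 within receptors. With the 959 unshared bases as the Ifng length, each log2 ratio to Ifng fell by the same amount, to a mean of -0.84 for Il12rb1 and -3.89 for Il18rap.

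**Figure D3:**
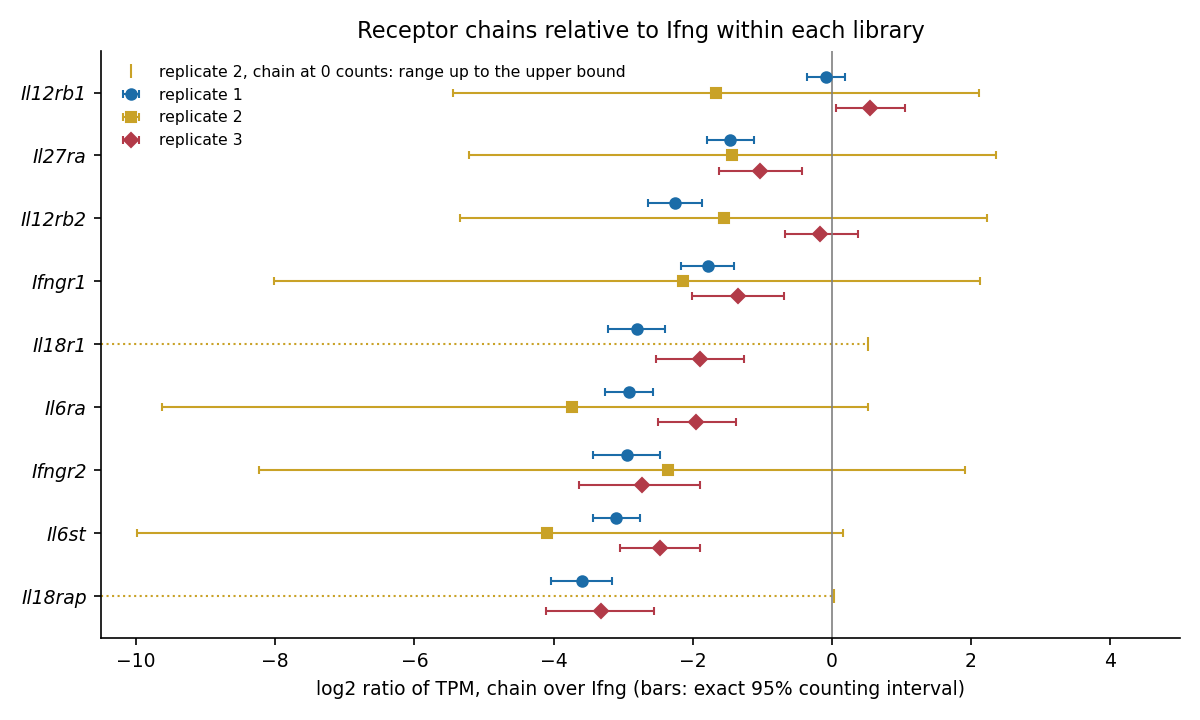
Log2 ratio of TPM of each receptor chain over Ifng within replicates 1, 2 and 3, with exact 95% counting intervals; dotted lines run to the upper bound where a chain had 0 counts in replicate 2. Il12rb1 straddles 0 (-0.09 in replicate 1, 0.54 in replicate 3), the other chains lie below 0, and Il12rb2 is at -0.16 in replicate 3 and -2.26 in replicate 1.

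Replicates 3 and 1 were compared gene by gene with an exact two-sided binomial test on library totals scaled by TMM, over the 11704 genes with at least 20 counts in both together; all 10 members were tested. The test compares the reads of these 2 libraries, not conditions, and its p-values cover counting error only. Of all genes, 43.6% differed at an adjusted p under 0.05 (Benjamini-Hochberg), 25.5% higher in replicate 3 and 18.2% lower. Of the members, 1 was higher and 1 was lower. Most members share no position with opposite-strand exons, and of all tested genes without such overlap 30.3% were called in either direction. Il12rb2, with 115 counts in replicate 3 and 92 in replicate 1, was higher by a log2 ratio of 1.33 (adjusted exact binomial p = 3.9e-10). Ifng, with 44 counts in replicate 3 and 150 in replicate 1, was lower, with a log2 ratio of -0.75 (adjusted exact binomial p = 0.0054). The call for Ifng was lost when totals were taken over genes without opposite-strand exons (log2 ratio -0.57, adjusted exact binomial p = 0.055), whereas that for Il12rb2 was not. All 7 T cell markers were also lower in replicate 3, with a median log2 ratio of -0.33 and the lowest at -0.66 for Cd3d. Of genes without opposite-strand exons, the class of most of these markers, 23.7% were called lower and the median was -0.24. The part of the T cell markers in the Ifng difference was not tested. Neither was called in a comparison with replicate 2, where each had 2 counts: set against replicate 2, replicate 3 gave Il12rb2 a log2 ratio of 0.05 and Ifng one of -1.33.

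The remaining 8 members did not pass the test. Their log2 ratios of replicate 3 to replicate 1 ran from -0.52 for Ifngr2 to 0.20 for Il6ra, with Il18rap at -0.47, Il27ra at -0.33, Ifngr1 at -0.32, Il12rb1 at -0.14, Il6st at -0.13 and Il18r1 at 0.15. Scaling moved these values. With plain library totals, all members but Il12rb2 had ratios below 0, and 7 of them, Ifng included, were called lower. So were 6731 of all 11704 tested genes, whose median was -0.69 in place of -0.11. The ratios also followed opposite-strand overlap. The 7024 tested genes without it had a median of -0.24 (quartiles -0.45 and 0.00), the 4155 with an overlap of up to 50% had 0.56 (-0.19 and 1.31), and the 238 with 90% or more had 1.37. Relative to the median of genes without overlap, Ifng was lower by a log2 difference of -0.51, with 6.83% of those genes below it; 23.7% of genes without overlap were called lower in replicate 3. Il12rb2 was 1.56 above that median, with 96.3% of those genes below it, but with 75.9% below it among genes with an overlap of up to 50%, its own class. Whether its higher count in replicate 3 came from Serbp1 fragments was not tested; Serbp1 had a log2 ratio of -0.11.

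**Figure D4:**
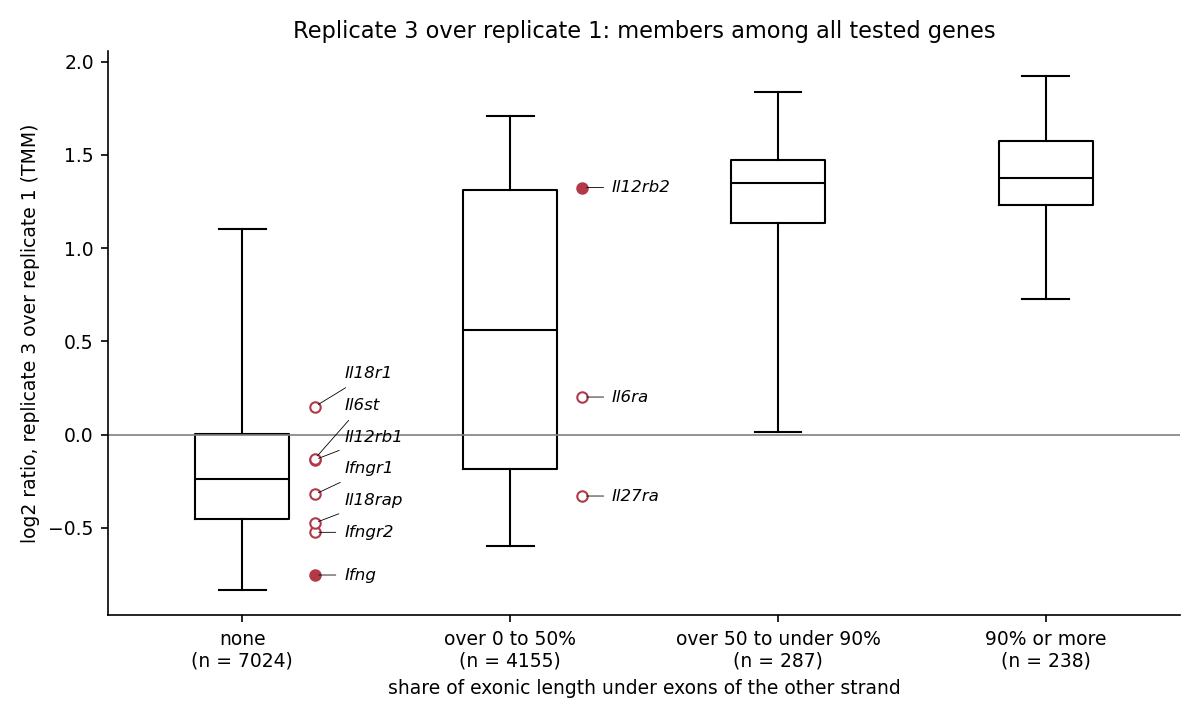
Log2 ratio of replicate 3 over replicate 1 after TMM scaling, for all tested genes by the share of their exonic length under exons of the other strand (boxes: quartiles and median; whiskers: 5th to 95th percentile), with the members beside their class (filled: adjusted p under 0.05). Ifng (-0.75) lies low among genes without overlap, whose median is -0.24, and Il12rb2 (1.33) lies near the upper quartile of its class, 1.31.

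Relative to Ifng, library scaling cancels: the change of each gene is its log2 ratio between replicates less that of Ifng, so the order of the genes is the same by construction. The counts of each gene and of Ifng in replicates 3 and 1 were compared by a two-sided Fisher exact test over 11703 genes, of which 40.2% changed relative to Ifng at an adjusted p under 0.05, 40.1% of all rising. Among the 9 chains, 3 rose relative to Ifng, a share near that background. Il12rb2 rose by 2.08 in log2 (adjusted Fisher exact p = 1.4e-10), Il6ra by 0.95 (adjusted Fisher exact p = 0.010) and Il18r1 by 0.90 (adjusted Fisher exact p = 0.039; 0.054 with a minimum of 1 count). Il12rb1 (0.62, adjusted Fisher exact p = 0.059) and Il6st (0.62, adjusted Fisher exact p = 0.12) did not pass, nor did Il27ra (0.42), Ifngr1 (0.43), Il18rap (0.28) and Ifngr2 (0.23). All 9 values were above 0, and the same Ifng counts enter each of them.

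Genes of the same pathways were read from lists by role. Of 8 ligand and decoy genes, 3 reached 1 TPM in both deep libraries: Il18bp, the secreted IL-18-binding protein that blocks IL-18 (217, 4 and 261 counts; 33.5 and 43.8 TPM in replicates 1 and 3), Ebi3, the subunit that IL-27 shares with IL-35 (97, 0 and 49 counts; 38.7 and 21.2 TPM), and Il27, the IL-27 p28 subunit (15, 0 and 16 counts; 6.86 and 7.95 TPM). Of the exonic length of Ebi3, Il27 and Il18bp, 23.1%, 10.1% and 2.64% lie under opposite-strand exons. Il18bp was higher in replicate 3 than in replicate 1 by a log2 ratio of 1.27 (adjusted exact binomial p = 1.3e-20). Over all tested genes 25.5% were higher, and Il27 (1.10) and Ebi3 (0.03) did not pass. Tested genes with an overlap of up to 50%, the class of these 3, had a median of 0.56 and an upper quartile of 1.31. Of that class 60.3% were called in either direction. Il12b had no count in any library, and Il12a, Il18, Il6 and Il23a had at most 3 counts in each. The libraries thus held the receptor chains with few counts of the ligands IL-12, IL-18 and IL-6, whose genes are mainly expressed by other cells.

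The intracellular partners stood above the chains. All 6 kinase and STAT genes passed 1 TPM throughout, and their medians were 44.4 and 19.6 TPM in replicates 1 and 3, against 9.54 and 5.70 TPM for the 10 members and 0.65 and 0.45 TPM for all protein-coding genes. Jak2, the kinase of IFNGR2 and IL-12Rβ2, stood at 143, 140 and 59.0 TPM in replicates 1, 2 and 3, Jak1 at 64.6, 22.9 and 25.9 TPM and Stat3 at 51.8, 30.3 and 33.9 TPM. Stat4, named after its values were seen because IL-12 acts through it, stood at 37.0, 42.7 and 12.2 TPM. Of these 6, Jak1, Jak2 and Stat4 were lower in replicate 3 than in replicate 1 and Stat3 was higher at an adjusted exact binomial p under 0.05, against 18.2% lower and 25.5% higher over all tested genes. All 5 IL-18 receptor adaptor genes reached 1 TPM in the deep libraries, led by Irak4 (60.5 TPM in replicate 3, 46.9 in replicate 1), Myd88 (25.2 and 34.1 TPM) and Irak1 (11.3 and 33.8 TPM). Of the adaptors, Irak1 was lower in replicate 3 and Irak4 and Myd88 were higher, beside the same shares over all genes. Of the exonic length of Irak4 and Myd88, 7.87% and 11.3% lie under opposite-strand exons. Tested genes with an overlap of up to 50%, their class, had a median log2 ratio of 0.56, and 60.3% were called in either direction.

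Of 12 related receptor chains, 4 reached 1 TPM in both deep libraries, and their medians were 0.59 and 0.10 TPM in replicates 1 and 3. Ifnar1, Ifnar2 and Il10rb were the highest, and Osmr and Cntfr, which encode chains for other cytokines that signal through gp130, had no count. Of the related chains, 5 had enough counts to be tested between replicates 3 and 1, and none passed. Of all tested genes 43.6% passed, and of those without opposite-strand exons 30.3%. All 5 log2 ratios were below 0, from -0.77 for Il10rb to -0.15 for Il1rap. Il10ra had the fewest counts of the 5, 37 and 14 in replicates 1 and 3, and low counts limit what the test can call. Of 12 interferon-gamma-induced genes, 9 reached 1 TPM in every library. Igtp and Gbp2, interferon-induced GTPases, stood at 266 and 216 TPM in replicate 1 and 113 and 93.2 TPM in replicate 3, and Psmb8, an immunoproteasome subunit, at 179 and 83.3 TPM. The chemokine genes Cxcl9 and Cxcl10 and the MHC class II regulator Ciita, named after their values were seen, had at most 3 counts in any library. Of the 9 tested, 5 were lower in replicate 3 than in replicate 1 and 1 was higher. Over all tested genes, 18.2% were lower and 25.5% higher. Of the T cell markers, 7 of 7 were lower, beside 23.7% of all tested genes without opposite-strand exons.

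Of the markers of myeloid, dendritic and B cells, Csf1r was the highest in every library, at 105, 84.5 and 167 TPM in replicates 1, 2 and 3, of which 17.8% of the exonic length lies under opposite-strand exons. Csf1r was higher in replicate 3 than in replicate 1, by a log2 ratio of 1.56. Tested genes with an overlap of up to 50%, its class, had a median of 0.56 and an upper quartile of 1.31. No other of the 7 myeloid markers exceeded 12 counts in a library; Lyz2, Adgre1, Itgam, Cd14 and Fcgr1 had none, and Cd68 had 12, 0 and 5, or 4.46 TPM in replicate 1 and 2.02 TPM in replicate 3. Of the dendritic cell markers, Flt3 and Siglech had no count, and Xcr1 and Itgax had at most 6. Of the B cell markers, Ms4a1 and Pax5 had none, Cd79a had 10, 0 and 22 counts and Cd79b had 1, 0 and 2. Cd79a stood at 7.66 TPM in replicate 3 and 3.21 TPM in replicate 1, within the range of the receptor chains in replicate 3 and below it in replicate 1, and was higher in replicate 3 by a log2 ratio of 2.10 (adjusted exact binomial p = 0.00019). The part of these markers in the differences between libraries was not tested.

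**Figure D5:**
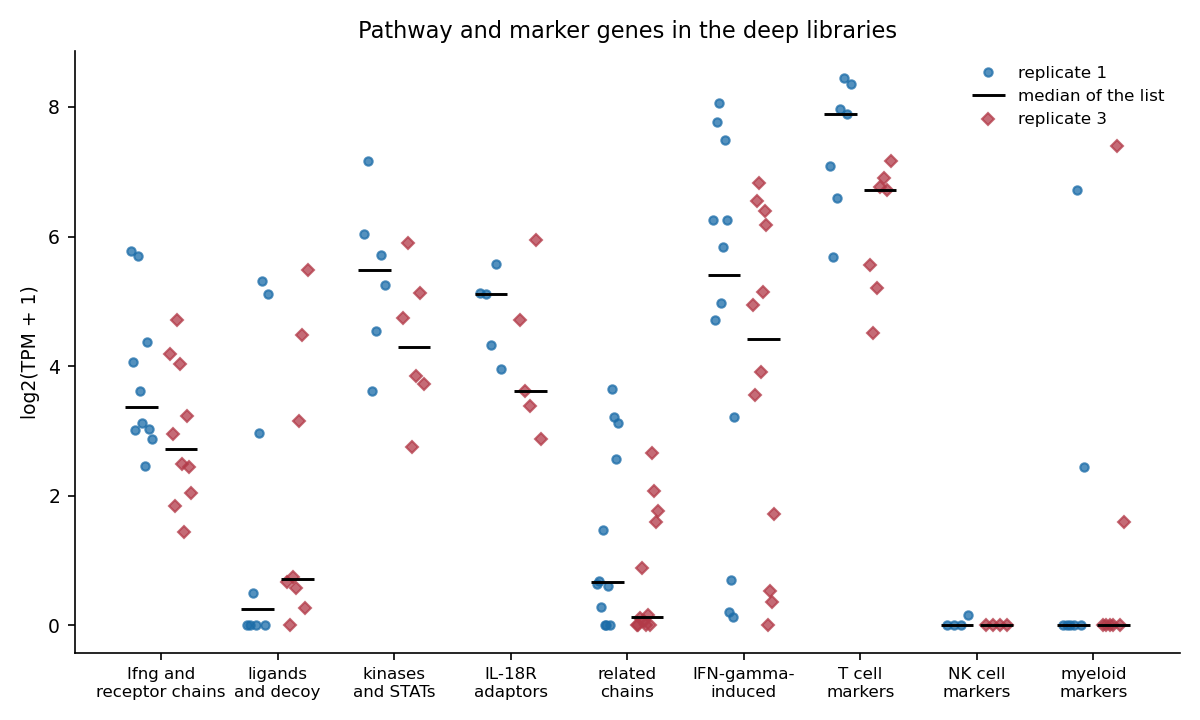
Log2(TPM + 1) in replicates 1 and 3 of Ifng and the receptor chains and of genes listed by role, with a bar at each list's median. Kinases and STATs (medians 44.4 and 19.6 TPM) lie above the members (9.54 and 5.70 TPM), most ligands lie near 0, and the natural killer cell markers are at or near 0.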

How the data were processed

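The deposited values are raw counts of fragments. Per the file headers, the authors counted them with featureCounts 1.4.6-p4, as pairs with both ends aligned, over the exons of each GENCODE M13 gene, with strand setting 1, from alignments named star2. The labels give mm10 as assembly and call the assay total RNA-seq, while the protocol they link is named for polyA+ RNA. Neither the aligner's version nor the kit's strand is given in the sources used here. Gene lengths, used for TPM, are the deposited ones.

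Of 50600 gene identifiers, 50376 had a symbol, and biotypes were taken from GENCODE M21 (same assembly). Exonic overlaps were computed with bedtools 2.31.1. CPM and TPM were computed here. Ratios between genes have exact Clopper-Pearson 95% intervals on the counts, levels have exact Poisson intervals, and both cover counting error only. Because there is 1 group, edgeR's test between groups was not used; TMM factors came from edgeR 4.0.16, alternative size factors from DESeq2 1.42.0 (R 4.3.3), and exact tests from scipy 1.17.1. Ratios between libraries had 0.5 added to each count. The binomial test was also run on counts simulated for 11704 genes in replicates 3 and 1. Only genes holding 100 or more counts were given a change. The test recovered 98.0% of genes changed 2-fold and 100.0% changed 4-fold, and called 0.043% of unchanged genes. These rates refer to counting error and give no error rate for variation between libraries. In the actual libraries 43.6% of genes were called. Ifngr2 (50 and 17 counts in replicates 1 and 3) and Il18rap (65 and 23) held fewer than 100 counts, so the recovery rates do not cover them.

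Members and lists were chosen with earlier results of these data known. Named genes were the members, genes overlapping them, the 3 highest of each list by mean TPM of replicates 1 and 3, list genes at 0 in every library, and the 5 nearest to Ifng in level; others are named as chosen after their values were seen or only with their counts. Alternatives changed scaling, length, count minimum and added count, and left out each replicate. Some withheld items are not reported here.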

Additional observations from a re-analysis of the deposited data

How the results depend on the processing

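No paired analysis was possible because the libraries form 1 group. Depth limits replicate 2, which had 0 to 2 counts of each member. Without length scaling, 3 of 9 chains instead of 8 lay below Ifng in every library with counts, the first chain was higher in 1 of 5 receptor pairs instead of 4, and the mean log2 ratio to Ifng became 1.26 for Il12rb1, 0.23 for Il12rb2 and 0.12 for Il27ra, and that of Il6ra to Il6st became 0.00 (-0.0044); this follows from gene lengths. The mean ratio of Il12rb1 to Ifng ran from -0.88 to 0.23 with a replicate left out.

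Between replicates 3 and 1, 5107 genes were called, of which 58.4% were higher in replicate 3; with library totals 8989 were called (25.1% higher), and with totals over genes without opposite-strand exons 3997 (83.3% higher), so the split of directions depends on scaling. With library totals Il18r1 turned to -0.43 and Il6ra to -0.38; with totals over genes without opposite-strand exons Il12rb1 turned to 0.049 and Il6st to 0.054, and Ifng, at -0.57, was no longer called. The cause was not tested. Replacing replicate 1 or 3 by replicate 2 left 127 to 653 genes called, none of them members. The members' log2 ratios then ran from -1.33 to 0.45 for Ifng, -0.80 to 0.36 for Ifngr1, -1.12 to 0.87 for Il12rb1, 0.05 to 1.15 for Il12rb2, -0.97 to 1.00 for Il18r1, -0.67 to 0.074 for Il18rap, -0.93 to 0.48 for Il27ra, -0.11 to 0.19 for Il6ra and -0.29 to 0.033 for Il6st, and Ifngr2 was 1.29 without replicate 3.

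Relative to Ifng, 4700 genes changed between replicates 3 and 1, but with replicate 2 in place of replicate 1 or 3 only 2 and 0 did (Fisher exact test; 402 and 55 at an unadjusted p under 0.05). The changes then ran from -0.10 to 0.53 for Ifngr1, -1.58 to 2.19 for Il12rb1, 0.70 to 1.38 for Il12rb2 (2.08 between replicates 3 and 1, and called only there), -1.42 to 2.32 for Il18r1, -1.12 to 1.401 for Il18rap, -0.56 to 1.52 for Il6ra and -0.74 to 1.36 for Il6st. With genes without opposite-strand exons as the TPM denominator, the mean level was 146 TPM instead of 45.0 for Ifng and 111 instead of 32.1 for Il12rb1. Adding 0.5 to both counts changed no direction of a mean ratio.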
